A study of Mus musculus with 6 samples.

Results

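Integrins are the receptors by which cells hold on to the matrix around them, and focal adhesions are the protein assemblies that tie those receptors to the actin cytoskeleton. The genes described here were the deposited rows named as numbered integrin alpha subunits or Itgav, integrin beta subunits, or one of a set of focal adhesion components (talins, kindlins, the ILK, PINCH and parvin proteins, kinases and scaffolds, LIM domain proteins, tensins and other actin linkers, caveolins). The choice was by symbol and used no measured value, though earlier results of these data were known when it was made. It gave 41 of the 13158 deposited genes, and 31 of them passed the filter on low counts and were tested, out of 9512 tested genes. The symbols Parvg, Fermt1, Fermt3 and Cav2 were also searched for and were not analysed here.

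The cells came from wild-type C57BL/6 mouse forelimbs at embryonic day 13.5. All libraries carried a Sox9-CreERT2 allele, a Rosa26-tdTomato lineage reporter and a ScxGFP reporter, and cells positive for both colours were sorted separately from proximal and distal limb tissue, so the gate holds cells that have expressed the cartilage precursor factor Sox9 and drive the tendon precursor factor Scx. The labels list no treatment, and how Cre was induced is not given in the sources used here. Each region had 3 libraries of bulk MARS-seq, which counts the 3' ends of transcripts. Whether the libraries are separate embryos or pools is not stated, so each p-value reflects the spread among these libraries alone, which may be technical. Libraries are called proximal 1 to 3 and distal 1 to 3, and those with the same number share a number in the labels whose meaning is not stated.

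Total counts were 1585631 to 2623788 per library, and the 41 genes held 3285 to 7616 of them, or 0.192% to 0.290%. The 45S ribosomal RNA precursor Rn45s held 11.7% of counts in proximal 1 and 2.20% to 6.81% in the others. Markers of the gate were present in both regions but not at like levels. Scx stood at 949 to 1643 CPM (counts divided by the TMM-scaled library size) in proximal and 2416 to 4122 CPM in distal libraries, and Sox9 at 93.3 to 126 and 269 to 365 CPM. Of 12 tested gate markers, 6 were higher in distal libraries at an adjusted p below 0.05 (edgeR) and none in proximal ones. The shares of all tested genes were 1.11% and 2.27%. Tnmd (6.07 to 26.1 against 2.79 to 5.44 CPM) and Pdgfra (means of 211 against 179 CPM) had lower distal means and did not pass. Summed transcripts of the skeletal muscle list were 273 to 724 CPM proximally and 50.1 to 68.9 CPM distally. At an adjusted p below 0.05 (edgeR), 8 of its 9 tested genes were higher in proximal libraries, beside 2.27% of all tested genes. The other, Mylpf, also had a higher proximal mean (23.2 against 5.26 CPM) but did not pass. The lists had 14 of 20 muscle, 10 of 20 blood and macrophage, 11 of 14 endothelial, 7 of 9 smooth muscle and pericyte, 9 of 13 surface ectoderm and 10 of 14 nerve and Schwann cell genes deposited. The macrophage receptor gene Csf1r, named after its values were seen, was at 0 in all 3 distal libraries, while others of its list, such as Pf4, had distal counts. The blood and macrophage list summed to 17.1 to 91.4 against 2.53 to 15.8 CPM and the endothelial list to 43.5 to 56.8 against 27.8 to 39.0 CPM. The smooth muscle and pericyte list summed to 273 to 380 against 219 to 319 CPM, the surface ectoderm list to 81.0 to 103 against 66.9 to 88.1 CPM, and the nerve and Schwann cell list to 33.5 to 49.1 against 40.4 to 66.3 CPM. Of the 2 tested genes in the nerve and Schwann cell list, 1 was higher in each region. Nefl stood at 12.7 to 18.1 against 0 to 1.67 CPM, and Stmn2 at 8.99 to 14.7 against 27.7 to 50.7 CPM.

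An integrin is a pair of an alpha and a beta subunit, and the pair decides which ligand is bound: fibronectin, collagens, laminins or other matrix proteins. Talin and kindlin bind the tail of the beta subunit to switch the receptor on, and the complex of integrin-linked kinase (ILK), PINCH and parvin, together with vinculin, tensins and zyxin, passes force to actin. Focal adhesion kinase, Src, p130Cas and paxillin turn adhesion into signals. In limb connective tissue, tendon and cartilage cells use these receptors to hold fibrillar collagen, fibronectin and tenascin, and basement membrane receptors are best known from epithelium, vessels, nerve and muscle.

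Most of the adhesion machinery was expressed in both proximal and distal progenitors with no difference that passed the test, and 2 genes were higher in proximal libraries. Itga6, a laminin-binding alpha subunit, was 5.19-fold higher in proximal libraries (95% interval 3.04 to 8.85), and Tgfb1i1, which encodes the LIM domain adaptor Hic-5, was 2.15-fold higher (1.48 to 3.12). These were the 2 of 31 tested genes with an adjusted p below 0.05 (edgeR, quasi-likelihood test), a share of 6.45% beside 3.39% of all tested genes. For genes higher in proximal libraries the share was the same 6.45% against 2.27% of all genes, and no tested member was higher in distal libraries (1.11% of all genes). At an unadjusted p under 0.05 there were 4 members, or 12.9%, against 10.8% of all genes. In a bulk sample, fewer cells that carry a transcript and less of it per cell cannot be told apart.

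Log2 fold changes, distal over proximal throughout, had a median of -0.04 over the 31 genes, with 17 below and 14 above 0, beside a median of 0.01 over all tested genes. In 25 of the 31 the size was under 0.5. The 95% interval of the difference lay wholly within a log2 change of 1 either way for 21 genes, or 67.7%, and did so for 68.0% of all tested genes. A log2 change of 1 is a doubling. The other 10 were Itga6, Tgfb1i1, Itga9, Itga8, Itga11, Itgav, Tln1, Tln2, Tns2 and Vcl, and a p that missed the threshold does not show that such genes were at equal levels.

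**Figure D1:**
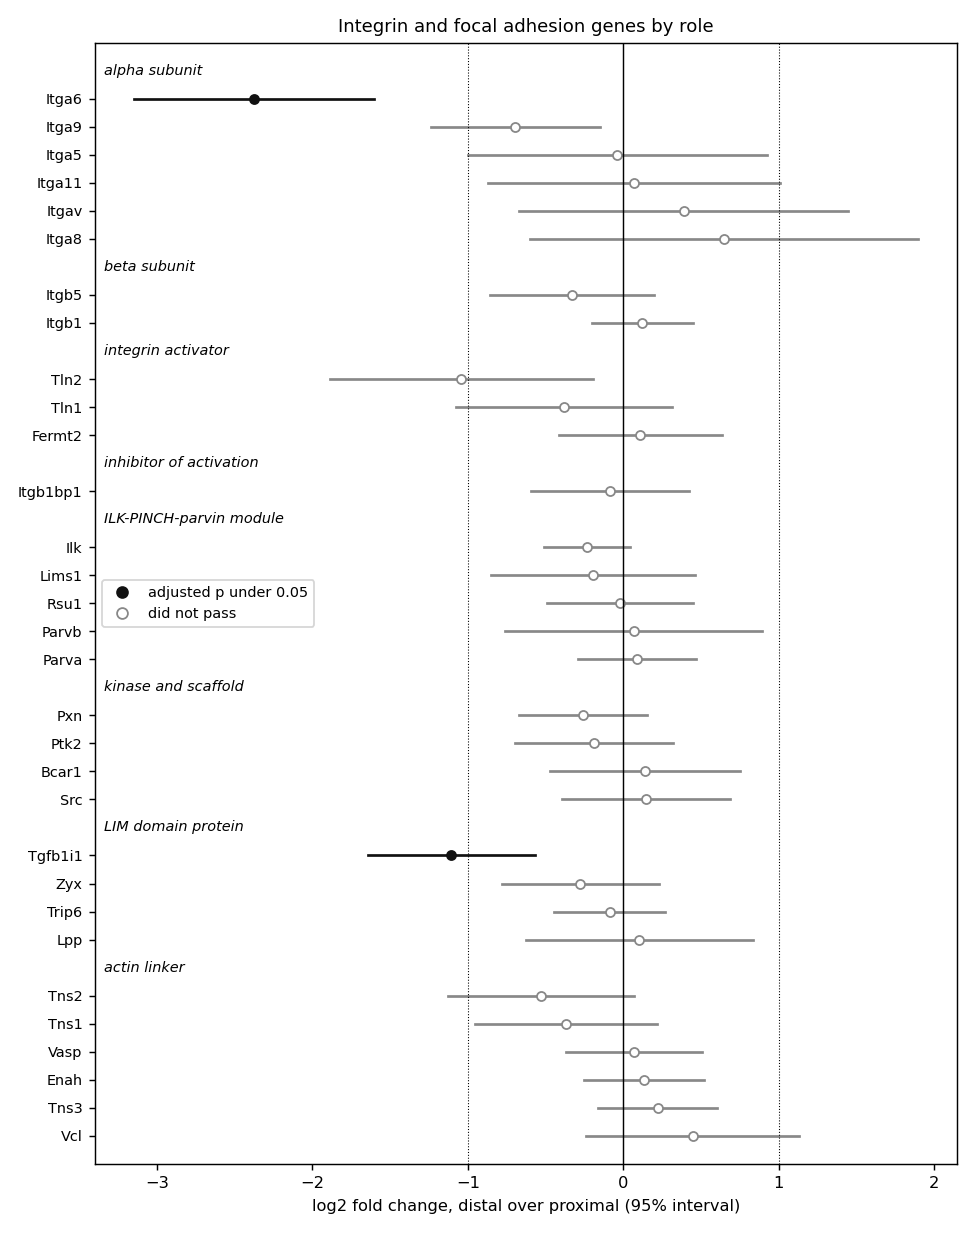
Log2 fold change, distal over proximal, of the 31 tested integrin and focal adhesion genes, grouped by role; lines are 95% intervals, dotted lines mark a change of 1, and filled points passed an adjusted p of 0.05. Itga6 at -2.37 and Tgfb1i1 at -1.11 are the filled points, and most other intervals cross 0.

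Among alpha subunits, 10 were deposited, 6 were tested and 1 passed. Itga6 (chromosome 2, 71745616 to 71858416, mm10, plus strand) pairs with Itgb1 or Itgb4 to bind laminin. It stood at 15.4, 14.4 and 19.8 CPM in proximal 1 to 3 and at 2.47, 3.79 and 3.34 CPM in distal 1 to 3, from 104 counts in proximal and 17 in distal libraries. Each proximal library was above every distal one. The means were 16.5 ± 2.89 and 3.20 ± 0.67 CPM (SD, n = 3), and the log2 fold change was -2.37 (SE 0.35; edgeR adjusted p = 0.0039). Within proximal libraries Itga6 was highest in proximal 3. This order rests on 23, 26 and 55 counts in proximal 1 to 3, so no source of the transcript is read from it. Of the 3 libraries, proximal 3 had the lowest sums for muscle (273 CPM) and for nerve and Schwann cells (33.5 CPM). It had the highest for blood (91.4 CPM), endothelium (56.8 CPM), surface ectoderm (103 CPM) and smooth muscle and pericytes (380 CPM). The last 2 sums were close to those of proximal 2 (99.3 and 376 CPM), and smooth muscle actin, Acta2, was lowest in proximal 3 (48.2 CPM). The globin gene Hbb-y alone gave 57.2 CPM of the blood sum. Muscle, blood and endothelial sums and the nerve gene Nefl were lower in every distal library than in any proximal one, as Itga6 was. The nerve gene Stmn2 was higher in every distal library than in any proximal one. The part of these transcripts in the Itga6 difference was not tested.

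Itga9, a subunit that pairs with Itgb1 and binds tenascin and other ligands, lies on chromosome 9 (118606690 to 118901003, plus strand). Its levels were 36.8, 37.5 and 47.5 CPM proximally and 30.2, 17.7 and 27.3 CPM distally. The regions did not overlap, but the difference did not pass (log2 fold change -0.69, SE 0.25; edgeR adjusted p = 0.24). Of the 31 tested genes, 4 had non-overlapping regions, Itga6, Itga9, Ilk and Tgfb1i1, all with proximal libraries above. That is 12.9%, against 8.67% of all tested genes with proximal libraries above, 7.53% with distal libraries above and 16.2% in either direction.

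The other tested alpha subunits were low and their regions overlapped. Itga11, a receptor for fibrillar collagen, ranged from 8.03 to 16.5 CPM proximally and 6.32 to 19.3 CPM distally, with a log2 fold change of 0.07 (SE 0.42). Itga5, the classical fibronectin receptor subunit, ranged from 6.62 to 8.70 and 3.34 to 12.01 CPM, with -0.04 (SE 0.43). In both genes the distal libraries spread more widely than the proximal ones. Itgav, which binds vitronectin and latent TGF-beta, ranged from 3.31 to 10.0 and 4.46 to 9.90 CPM, with 0.39 (SE 0.48). Itga8, a nephronectin receptor, ranged from 2.68 to 7.18 and 2.23 to 10.1 CPM, with 0.65 (SE 0.56). The signs of the Itga11 and Itga5 values changed with the libraries used.

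The remaining alpha subunits fell below the filter. Itga1 and Itga10, which bind collagens, had 19 and 8 counts over all 6 libraries, Itga3, a laminin receptor subunit, had 14, and Itga4, which binds fibronectin and VCAM1, had 28. Itga10 had 7 counts in proximal and 1 in distal libraries. No difference could be read from these counts.

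Of 5 beta subunits, 2 were tested and neither passed. Itgb1, the common partner of most matrix-binding alpha subunits, had CPM values of 121, 142 and 142 in the proximal and 153, 134 and 155 in the distal libraries (chromosome 8, 128685654 to 128733200). The regions overlapped, with a log2 fold change of 0.12 (SE 0.15, 95% interval -0.20 to 0.45; edgeR adjusted p = 0.90). The interval of Itga6, its partner, was -3.15 to -1.60; the difference between both genes was not tested.

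Itgb5, a vitronectin receptor subunit that pairs with Itgav, had CPM values of 123, 170.0 and 245 in the proximal and 129.6, 126 and 175 in the distal libraries; its log2 fold change was -0.33 (SE 0.24; edgeR adjusted p = 0.78). Library 3 was highest in both regions, and the lowest library of all was proximal 1. Itgb4, the hemidesmosome partner of Itga6, had 22 counts in proximal and 7 in distal libraries, a ratio of 0.359 (counting interval 0.129 to 0.869). Its counts were 1, 10 and 11 in proximal and 0, 1 and 6 in distal libraries, so the regions overlapped. Itgb3, a partner of Itgav in osteoclasts, had 27 and 11 counts, a ratio of 0.459 (0.206 to 0.957). Its libraries did not overlap, at 4.01, 4.42 and 4.68 CPM against 1.98, 0.63 and 3.34 CPM. These intervals cover counting error only and not the spread between libraries, and in a fit with no filter the adjusted p was 0.67 for Itgb4 and 0.53 for Itgb3. Itgb7, a leukocyte subunit, had 10 and 8 counts.

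**Figure D2:**
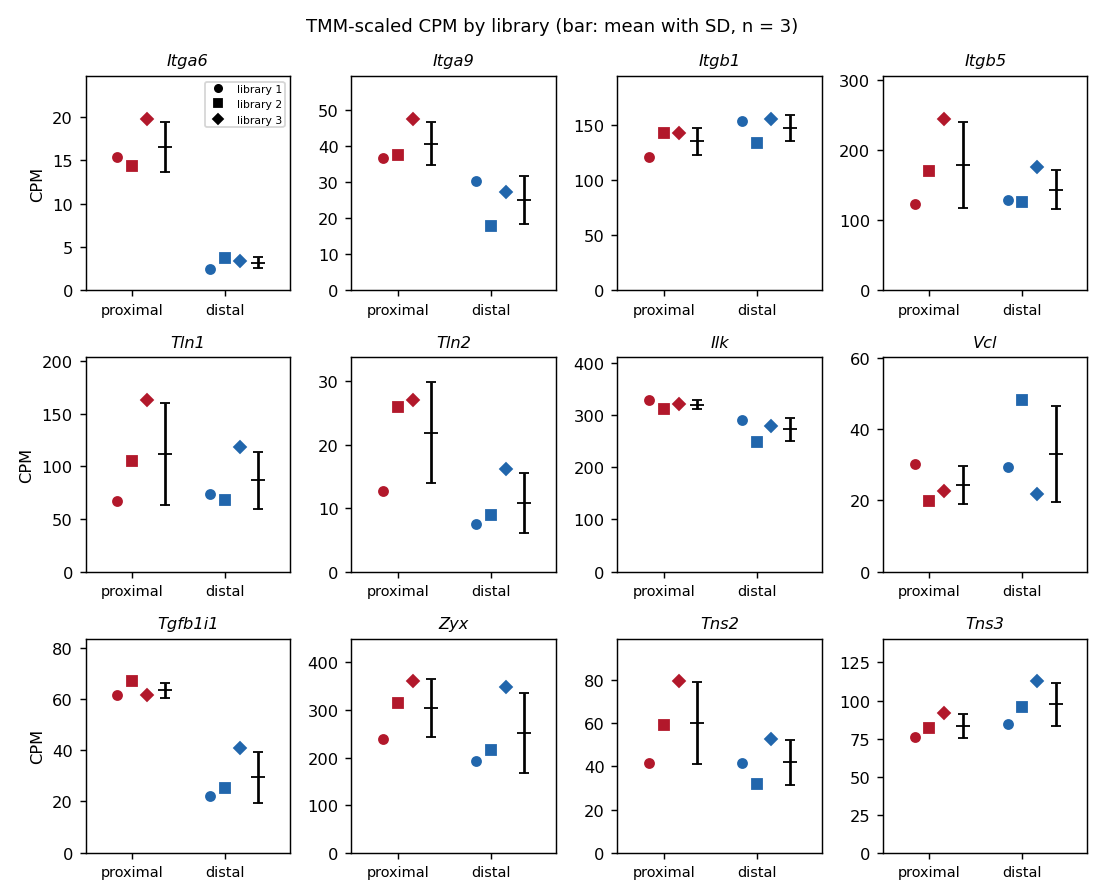
TMM-scaled CPM of 12 genes in each library (red proximal, blue distal; circle, square and diamond for libraries 1, 2 and 3), with the mean and SD of 3 libraries in black. The regions separate for Itga6, Itga9, Ilk and Tgfb1i1 and overlap for the other genes shown.

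None of the 3 tested activators passed. Tln1, the main talin of mesenchyme, had CPM values of 67.6, 105 and 163 in the proximal and 73.7, 68.3 and 118 in the distal libraries (log2 change -0.38, SE 0.31; edgeR adjusted p = 0.83). Tln2, the talin that is prominent in muscle and brain, had CPM values of 12.7, 25.9 and 27.0 in the proximal and 7.42, 8.85 and 16.2 in the distal libraries. Proximal 1 lay below distal 3 for both talins, and the regions overlapped. The Tln2 difference did not pass at -1.04 (SE 0.38; edgeR adjusted p = 0.27), with muscle transcripts higher in proximal libraries as given above; their part was not tested. Fermt2, the kindlin of connective tissue, ranged from 28.4 to 43.1 and 32.3 to 47.4 CPM (0.11, SE 0.24). Itgb1bp1, which encodes an inhibitor of Itgb1 activation, had 52.9, 36.4 and 46.4 CPM in proximal libraries and 49.98, 44.9 and 32.9 CPM in distal ones, which overlapped (-0.08, SE 0.23; edgeR adjusted p = 0.97).

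None of the 5 tested ILK, PINCH and parvin genes passed; their log2 fold changes were -0.23 to 0.09 and all 5 intervals lay within a change of 1. Ilk, the scaffold at the centre of the complex (chromosome 7, 105736592 to 105742925), had CPM values of 329, 311 and 321 in the proximal and 289.96, 248 and 279 in the distal libraries. The regions did not overlap, yet the difference was small and did not pass (-0.23, SE 0.13, 95% interval -0.51 to 0.05; edgeR adjusted p = 0.61). Parva, the parvin of most tissues, ranged from 119 to 154 and 128 to 173 CPM (0.09, SE 0.17), and Parvb from 10.0 to 16.5 and 8.41 to 20.6 CPM (0.07, SE 0.37). Lims1, which encodes the PINCH adaptor, ranged from 50.2 to 82.3 and 36.2 to 78.4 CPM (-0.19, SE 0.30). Rsu1, a PINCH-binding suppressor of Ras signalling, ranged from 61.5 to 83.6 and 56.3 to 84.1 CPM (-0.02, SE 0.21). Lims2, the second PINCH gene, had 10 counts in proximal and 2 in distal libraries, a ratio of 0.225 (counting interval 0.024 to 1.06).

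The 4 signalling members were tested and none passed. Src, the kinase that acts with focal adhesion kinase, had CPM values of 56.2, 111 and 85.3 in the proximal and 77.7, 92.3 and 111 in the distal libraries (0.15, SE 0.24; edgeR adjusted p = 0.94). Pxn, encoding paxillin, had CPM values of 57.5, 66.2 and 68.7 in the proximal and 48.0, 51.8 and 61.8 in the distal libraries (-0.26, SE 0.19; edgeR adjusted p = 0.77). Both genes overlapped between the regions. Ptk2, encoding focal adhesion kinase, ranged from 55.2 to 77.0 and 41.1 to 66.3 CPM (-0.19, SE 0.23), and Bcar1, encoding p130Cas, from 32.8 to 64.6 and 42.6 to 69.6 CPM (0.14, SE 0.28). All 4 intervals lay within a change of 1.

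In the LIM domain group 1 of 4 passed. Tgfb1i1 (chromosome 7, 128246812 to 128255699, plus strand) encodes Hic-5, a paralog of paxillin that is induced by TGF-beta and is known from smooth muscle and myofibroblasts. It had CPM values of 61.6, 66.8 and 61.5 in the proximal and 22.3, 25.3 and 40.7 in the distal libraries, from 384 and 158 counts. The lowest proximal library was above the highest distal one, and the 3 proximal libraries lay close together. The means were 63.3 ± 3.03 CPM and 29.4 ± 9.87 CPM (SD, n = 3), and the log2 fold change was -1.11 (SE 0.24; edgeR adjusted p = 0.033). The paralog Pxn, at -0.26 with an interval of -0.67 to 0.16, did not pass, and the difference between both genes was not tested.

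The Tgfb1i1 call was lost without proximal 2 or 3 or distal 1 or 2 (edgeR adjusted p = 0.14, 0.099, 0.16 and 0.15) and with library size in place of TMM (0.070), while its log2 fold change kept within -1.43 and -0.93 over all alternatives. The Itga6 call held in all 16 alternatives with a value, at adjusted p of 0.00091 to 0.030. In the smooth muscle and pericyte list, Acta2, smooth muscle actin, stood at 48.2 to 132 CPM proximally and 6.93 to 12.6 CPM distally (-3.20, SE 0.40; edgeR adjusted p = 0.0015). The other 4 tested genes of the list, Kcnj8 (-0.52, SE 0.40), Cspg4 (0.35), Notch3 (-0.21) and Pdgfrb (0.03), did not pass, and Myh11 was not analysed here. The part of those cells, or of muscle, in the Tgfb1i1 difference was not tested.

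Zyx, encoding zyxin, a LIM protein recruited to adhesions and stress fibres under tension, had CPM values of 239.5, 315 and 360.1 in the proximal and 192, 216 and 349 in the distal libraries (-0.28, SE 0.23; edgeR adjusted p = 0.83). The regions overlapped, with distal 3 near the top of the proximal range. Trip6, a zyxin relative, ranged from 155 to 183 and 133 to 186 CPM (-0.09, SE 0.16), and Lpp, another relative, from 27.0 to 54.2 and 25.1 to 57.5 CPM (0.10, SE 0.33).

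Of 7 actin linkers, 6 were tested and none passed. Vcl, encoding vinculin, which reinforces talin's hold on actin, had CPM values of 30.1, 19.9 and 22.7 in the proximal and 29.2, 48.0 and 21.7 in the distal libraries (0.45, SE 0.31; edgeR adjusted p = 0.75). Distal 2 was above every other library, and the other 2 distal libraries lay within the proximal range. The tensins, which bind beta subunit tails and actin, differed among themselves in sign. Tns2 had CPM values of 41.5, 59.1 and 79.1 in the proximal and 41.6, 31.6 and 52.4 in the distal libraries (-0.53, SE 0.27; edgeR adjusted p = 0.56). In Tns1 the proximal libraries had 50.2, 45.8 and 79.9 CPM and the distal ones 45.5, 34.8 and 56.8 CPM (-0.37, SE 0.26; edgeR adjusted p = 0.77). In Tns3 they had 76.3, 81.7 and 92.1 CPM and 84.6, 95.4 and 113 CPM (0.22, SE 0.17; edgeR adjusted p = 0.81). None of the tensins passed, so no change is read from these values. Enah, which promotes actin filament growth, had 82.3, 83.9 and 111 CPM in proximal libraries and 95.005, 109 and 101 CPM in distal ones (0.13, SE 0.17; edgeR adjusted p = 0.91). Its relative Vasp ranged from 60.9 to 85.6 and 66.3 to 91.9 CPM (0.07, SE 0.20), and both genes overlapped between regions. Tns4, with 23 counts in all, and Cav1, encoding the coat protein of caveolae, with 6 counts in all 6 libraries, were not tested.

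Many adhesion and actin genes are targets of serum response factor (SRF), which binds the CArG box together with actin-sensing MRTF cofactors. RefSeq promoter windows (GRCm38.p6, 250 bases before to 50 after the annotated start) matched 31 of the 41 genes, which are not the same as the 31 tested genes. No window was available for Itga6 or Tgfb1i1, so the 2 genes that passed were not searched. Itgb3, Itgb4, Tln2, Pxn, Parva, Ptk2, Lims2 and Tns4 had no window either. In 4 of the 31 genes with a window, Vcl, Trip6, Fermt2 and Rsu1, the window held a CArG box on either strand. That is 12.9%, against 1.81% of the 27025 genes with a window. The members all come from the 13158 deposited genes, but the 27025 were not limited to those and include genes with too few counts to be listed. The 2 sets are therefore unlike, here and for the motifs below, and no enrichment is read from these shares. The 4 windows are shown because they carry this motif, which is in capitals and overlaps none of the other motifs searched.
Vcl (chr14:20929148-20929447, plus strand): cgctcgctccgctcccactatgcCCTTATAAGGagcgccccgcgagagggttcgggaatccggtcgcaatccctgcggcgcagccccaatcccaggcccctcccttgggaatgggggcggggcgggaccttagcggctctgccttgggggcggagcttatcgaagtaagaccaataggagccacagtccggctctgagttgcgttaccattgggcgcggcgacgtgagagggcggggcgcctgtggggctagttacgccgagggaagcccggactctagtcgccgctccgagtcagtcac
Trip6 (chr5:137314192-137314491, minus strand): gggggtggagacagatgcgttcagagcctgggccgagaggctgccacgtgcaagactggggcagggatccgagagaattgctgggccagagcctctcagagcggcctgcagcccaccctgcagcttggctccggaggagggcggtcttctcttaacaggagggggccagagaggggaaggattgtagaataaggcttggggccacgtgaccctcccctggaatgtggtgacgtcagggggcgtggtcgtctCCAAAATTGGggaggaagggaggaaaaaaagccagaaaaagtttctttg
Fermt2 (chr14:45530016-45530315, minus strand): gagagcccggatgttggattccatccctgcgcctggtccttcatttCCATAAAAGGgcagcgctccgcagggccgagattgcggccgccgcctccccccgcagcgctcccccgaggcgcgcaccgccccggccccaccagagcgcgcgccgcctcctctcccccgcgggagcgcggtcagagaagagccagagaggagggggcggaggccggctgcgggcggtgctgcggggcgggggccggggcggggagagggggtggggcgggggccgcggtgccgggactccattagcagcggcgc
Rsu1 (chr2:13271366-13271665, minus strand): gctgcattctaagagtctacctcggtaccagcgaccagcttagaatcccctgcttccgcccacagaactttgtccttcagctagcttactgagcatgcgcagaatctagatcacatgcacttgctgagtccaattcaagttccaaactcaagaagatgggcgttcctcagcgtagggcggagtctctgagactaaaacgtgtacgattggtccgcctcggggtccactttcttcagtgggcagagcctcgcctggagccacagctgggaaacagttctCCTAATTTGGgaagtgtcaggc
The box began at base -227 in Vcl, -204 in Fermt2, 2 in Trip6 and 29 in Rsu1, counted from the annotated start. None of these 4 genes differed between regions by the test, with log2 fold changes of 0.45, 0.11, -0.09 and -0.02 respectively. The GC box GGGCGG was found in 20 of the 31 genes (64.5%, against 38.2% of all), the TEAD motif GGAATG in 5 (16.1% against 16.6%), the E-box CANNTG in 22 (71.0% against 75.0%), the AP-1 motif TGANTCA in 3 (9.68% against 8.97%) and the RUNX motif TGTGGT in 5 (16.1% against 18.9%), on both strands. A match is a run of letters and not a measured binding site.

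Libraries of 1 region also differed from each other across many members. In 13 of the 31 tested genes library 3 was the highest of its region in both regions: Itgb1, Itgb5, Tln1, Tln2, Parva, Parvb, Ptk2, Pxn, Zyx, Vasp, Tns1, Tns2 and Tns3. This is 41.9%, beside 17.8% of all tested genes. Proximal 1 was the lowest proximal library for 18 of the 31, or 58.1%, beside 38.4% of all tested genes. The summed level of all 41 genes was 2198, 2460 and 2740 CPM in proximal 1 to 3 and 2051, 2156 and 2508 CPM in distal 1 to 3. With proximal 1 and distal 3 left out together, 7 of 31 members passed (22.6%, beside 8.73% of all genes; all 7 were higher in proximal libraries, beside 4.26% of all genes). These were Itga6, Tgfb1i1, Tln2 (-1.71), Tln1 (-0.92), Tns2 (-0.92), Zyx (-0.73) and Itgb5 (-0.70). Those libraries were set apart in an earlier analysis of the same data, so the setting is not independent. For Tln2, Tln1, Tns2, Zyx and Itgb5, proximal 1 was the lowest proximal library and distal 3 the highest distal one. Leaving out both therefore raises the proximal over the distal level of these genes by construction, and nothing is read from the count or its direction.

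**Figure D3:**
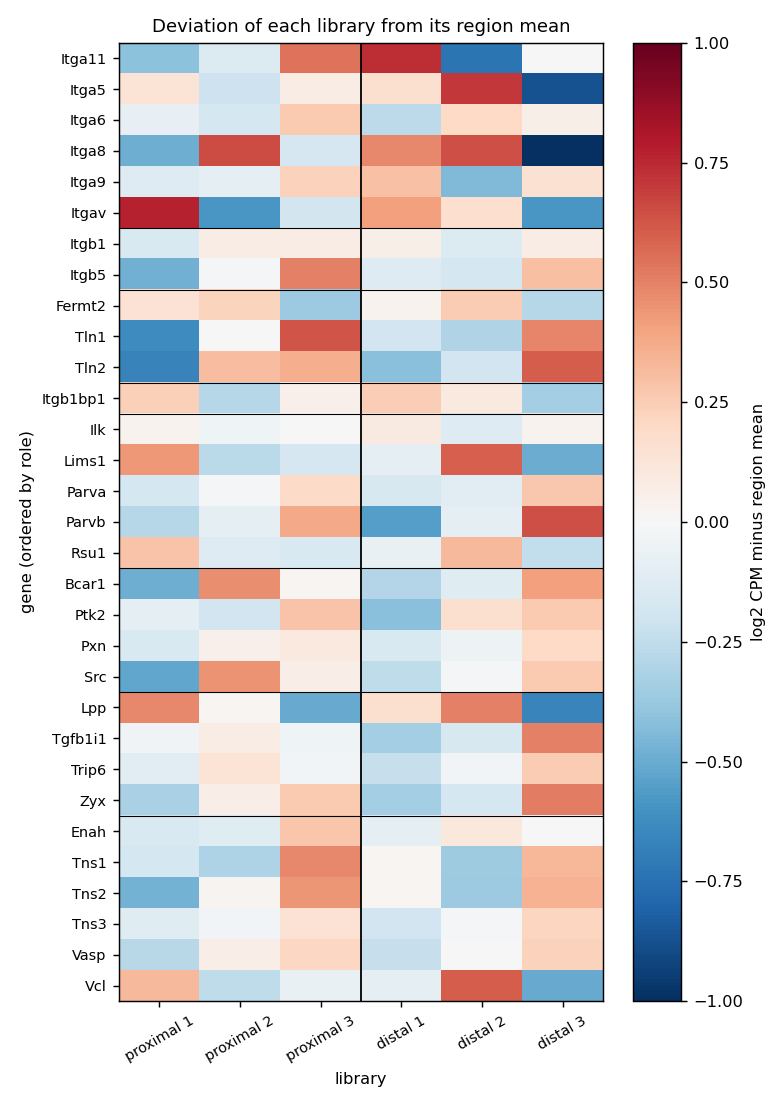
Log2 CPM of each tested gene in each library minus the mean of its region (colour scale from -1 to 1), with genes ordered by role and the black vertical line between regions. Proximal 1 is mostly blue and both libraries numbered 3 are mostly red for Tln1, Tln2, Itgb5, Zyx and the tensins Tns1, Tns2 and Tns3.

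Several matrix ligands of integrins were higher in proximal libraries. Of 20 tested ligands other than collagens, 3 were higher in proximal libraries and none in distal ones, beside 2.27% and 1.11% of all tested genes. Their median log2 fold change was -0.51, beside 0.01 over all tested genes. Lama4, a laminin alpha chain of vessel and muscle basement membranes, had CPM values of 66.9, 58.5 and 75.2 in the proximal and 29.7, 28.4 and 30.6 in the distal libraries. Every proximal library was above every distal one. Its log2 fold change was -1.18 (SE 0.19; edgeR adjusted p = 0.0068). The microfibril gene Fbn1 was also higher in proximal libraries (-1.05, SE 0.22; edgeR adjusted p = 0.028), as was Postn, encoding periostin, a ligand of Itgav-containing receptors (-2.03, SE 0.45; edgeR adjusted p = 0.040). The muscle and endothelial sums given above were also higher in proximal libraries, and their part in these differences was not tested. Nid2, which links laminin to collagen IV, did not pass at -0.95 (SE 0.24; edgeR adjusted p = 0.065).

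The laminin ligands were grouped after their values were seen. All 8 tested laminin chains, nidogens and perlecan had negative log2 fold changes, from -1.18 to -0.36, and 1 of them, Lama4, passed. In 5 of the 8 the regions did not overlap, with proximal libraries above, as in 8.67% of all tested genes; since the group was formed on its values, nothing is read from this count. Fn1, encoding fibronectin, and Tnc, encoding tenascin-C, did not pass at -0.83 (SE 0.27) and -0.76 (SE 0.22). Itga5 and Itga9, subunits of receptors for them, had -0.04 and -0.69. Fn1, Tnc, Col4a1, Col4a2, Lama1 and Lama5 were named after their values were seen, as were Col2a1 and Col6a1.

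Collagen chains, the ligands of Itga1, Itga10 and Itga11, differed in both directions, with a median log2 fold change of -0.68. Of 13 tested, 4 were higher in proximal libraries, Col6a2 (-1.54), Col5a2 (-1.32), Col6a1 (-0.88) and Col1a2 (-0.83), and the cartilage collagen genes Col2a1 (1.84) and Col9a1 (1.62) were higher in distal ones, beside 2.27% and 1.11% of all tested genes. Col6a2 averaged 239 ± 67.5 and 82.1 ± 23.8 CPM (SD, n = 3). Among the ligand calls, those of Lama4 and Col6a2 held in every alternative run on them. Each of the other 7 was lost in 2 to 5 alternatives, and all 7 were lost without distal 1. Over all of these losses the adjusted p was 0.055 to 0.16 (edgeR, and for Postn also limma-voom).

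**Figure D4:**
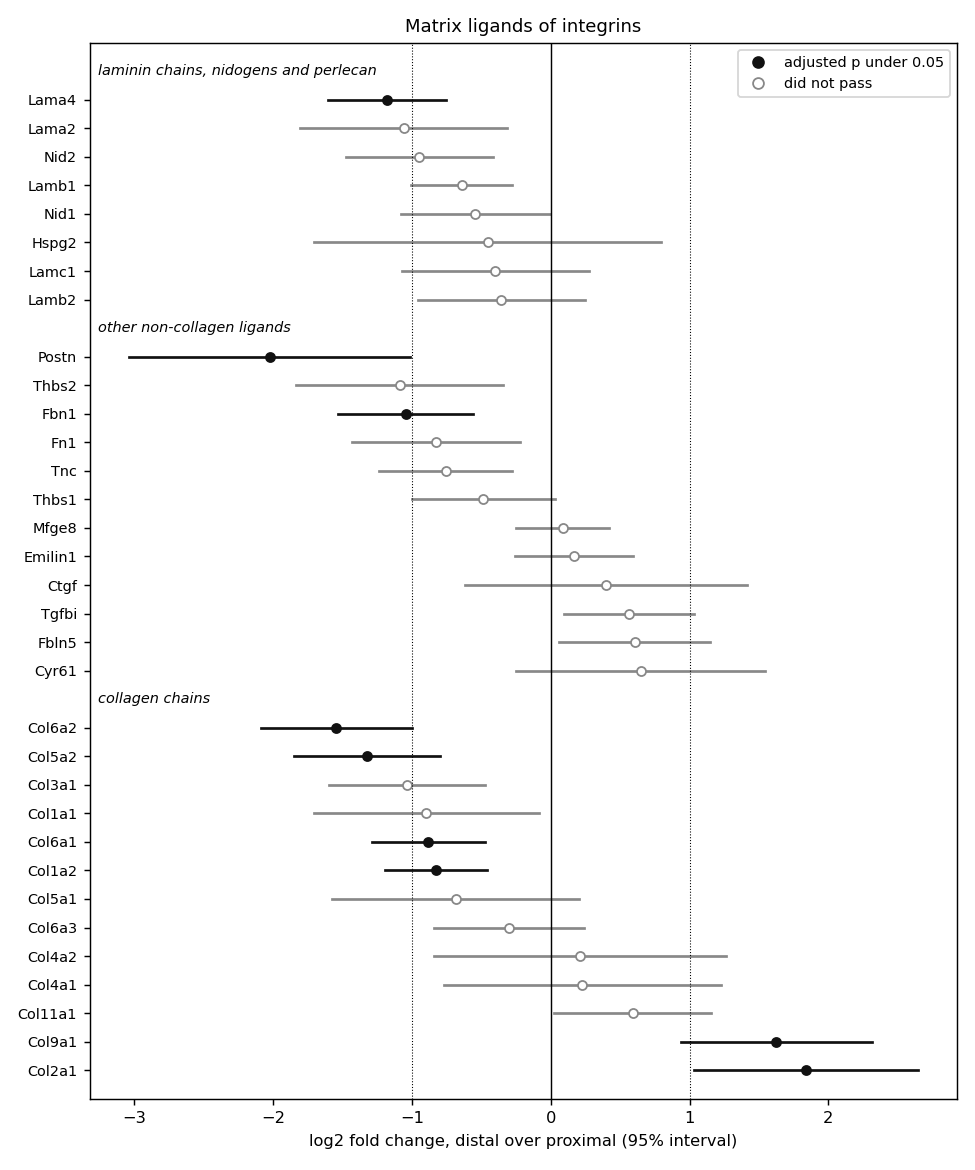
Log2 fold change, distal over proximal, of 33 tested matrix ligands of integrins with 95% intervals, grouped as laminin-type, other non-collagen and collagen genes; filled points passed an adjusted p of 0.05. All laminin-type genes lie left of 0, with Lama4 at -1.18 the only one filled, and the cartilage collagen genes Col2a1 and Col9a1 lie on the right.

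Of 39 tested signalling genes of the adhesome outside the members, 1 was higher in each region (2.27% of all tested genes were higher in proximal libraries and 1.11% in distal ones), with a median log2 fold change of 0.01. Fyn, a kinase of the Src family, averaged 77.2 ± 7.58 and 38.7 ± 2.69 CPM (-1.0001, SE 0.18; edgeR adjusted p = 0.013), beside 0.15 for Src. Kank1, a talin-binding protein at the rim of adhesions, averaged 11.5 ± 0.96 and 28.3 ± 4.59 CPM (1.30, SE 0.25; edgeR adjusted p = 0.018). Nck2 (0.38) and Pik3r1 (-0.59) did not pass.

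Among 21 tested actin-linking genes outside the members, 5 passed, 3 with higher distal and 2 with higher proximal levels, beside 1.11% and 2.27% of all tested genes. The median log2 fold change was 0.19. Flnc, encoding the filamin of muscle and stretched adhesions, averaged 103 ± 21.0 and 27.3 ± 7.75 CPM (-1.92, SE 0.24; edgeR adjusted p = 0.0018), and Svil, encoding supervillin, had -1.37. Csrp2, a LIM protein of smooth muscle and mesenchyme, averaged 296 ± 36.5 and 527 ± 35.7 CPM (0.83, SE 0.14; edgeR adjusted p = 0.0074). Pdlim5 (2.53) and Fhl1 (0.99) were the other 2 higher in distal libraries; Fhl1 was named after its value was seen. Flnc and Svil are expressed in muscle, whose transcripts were higher in proximal libraries, and that part was not tested.

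Of 18 tested integrin partner genes, 3 were higher in proximal libraries and none in distal ones, beside 2.27% and 1.11% of all tested genes, with a median log2 fold change of -0.10. They were Ehd2, a caveola-associated ATPase (23.3 ± 1.15 against 6.43 ± 0.66 CPM; -1.83, SE 0.27; edgeR adjusted p = 0.0044), and the tetraspanin genes Cd82 (-1.73) and Tspan9 (-0.88). Lgals1, encoding a galectin, did not pass at -0.50. The calls of Flnc and Ehd2 held in every alternative run on them. Those of Fyn, Kank1, Csrp2, Pdlim5, Svil, Fhl1, Cd82 and Tspan9 were each lost in 1 to 5 of them, all when 1 library was left out and, for Tspan9, also with library size alone (edgeR adjusted p = 0.050 to 0.18).

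Exons of 13 members, 8 of them tested (Ilk, Itga8, Itgav, Itgb1bp1, Lpp, Tln1, Vcl and Zyx), overlap exons of a neighbouring gene in GENCODE M21. Because it is not known whether counting used strand, reads in the shared stretches of these genes cannot be assigned with certainty. Neither Itga6 nor Tgfb1i1 has such an overlap.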

How the data were processed

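RNA was measured by bulk MARS-seq in 3 proximal and 3 distal libraries of sorted forelimb progenitors. The deposited table gives the authors' raw counts for each gene and normalized counts, a signal that the authors made by dividing each library by 1 factor and that was used for nothing here beyond checking this. The submitters' processing notes list HTSeq, TopHat2, DESeq2, cutadapt 1.8.3, bcl2fastq 2.17.1.14 and build mm10 without their roles. No annotation, strand setting or handling of molecular identifiers is given in the sources used here. Each listed gene has 6 or more counts in all.

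The regional test used edgeR 4.0.16 (R 4.3.3) with TMM scaling, filterByExpr (minimum count 10, minimum total 15), and the robust quasi-likelihood F test with region as the only term, with p-values adjusted over all 9512 tested genes by the Benjamini-Hochberg method and a threshold of 0.05. The SE was taken as the absolute log2 change divided by the root of F, and 95% intervals use the test's degrees of freedom and are not adjusted for the number of genes. CPM values are TMM-scaled and not divided by gene length, so the levels of different genes are not ranked. A count of 0 allows up to 3 counts, or 1.08 to 2.01 CPM by library; counting intervals are exact and cover counting error only. The procedure was tested on simulated data, where the share of false calls exceeded the nominal threshold and many changes of a log2 of 1 were missed. Alternatives used DESeq2 1.42.0, limma 3.58.1 (voom) and other scalings, filters and subsets of libraries. Motifs and coordinates came from RefSeq and GENCODE M21 of the same build.

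The members and the lists of ligands, partners and markers were chosen with earlier results of these data known. Named in detail were members that passed, then those with the smallest p up to 12, and the member with the highest mean CPM of each role. Of each list of ligands, signalling genes, actin-linking genes and partners, up to 4 tested genes with the smallest p were named. Not all marker lists were treated by this rule, and other genes were added after seeing values. No other genes were searched for likeness to a member. Whether the replicate number in the labels pairs the libraries could not be decided, and the main test did not use it.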

Additional observations from a re-analysis of the deposited data

How the results depend on the processing

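With library size in place of TMM, 1 member passed instead of 2, and at an adjusted p of 0.01 also 1 member, with 143 of all genes against 322. Leaving out 1 library gave 1 to 2 members and 171 to 334 genes in all, the lowest without distal 1. With proximal 1 and distal 3 left out together, 7 members and 862 genes passed. The other alternatives (DESeq2 size factors, upper-quartile scaling, no filter, a filter of 10 CPM in 3 libraries, the DESeq2 Wald test, limma-voom, Rn45s left out and a minimum log2 change of 1) gave 2 members each. Whether replicate numbers pair the libraries could not be decided. Deviations from the region mean correlated at 0.35, -0.14 and 0.48 for numbers 1, 2 and 3. Of all pairs of libraries, the value for number 3 was the highest, and not every library correlated best with its own number. The deviations cancel within a region, so these correlations depend on each other and cannot exclude pairing. With the replicate number as a block, 2 members and 465 genes passed, against 2 members and 322 genes without it.

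The sign changed in some setting for 15 of the 31 members, none of which passed in the main comparison; the cause was not tested. With proximal 1 and distal 3 left out together the log2 fold changes were -0.29 for Bcar1, -0.035 for Itga11, 0.38 for Itga5, 0.19 for Itgb1bp1, 0.26 for Lims1, -0.15 for Parva, -0.50 for Parvb, 0.25 for Rsu1, -0.20 for Src and -0.18 for Vasp. With limma-voom they were -0.014 for Itga11 and -0.030 for Parvb. Over the fits with 1 library left out the range was -0.10 to 0.40 for Bcar1, -0.067 to 0.25 for Fermt2, -0.42 to 0.46 for Itga11, -0.46 to 0.32 for Itga5, -0.22 to 0.075 for Itgb1bp1, -0.55 to 0.044 for Lims1, -0.17 to 0.38 for Lpp, -0.062 to 0.19 for Parva, -0.37 to 0.34 for Parvb, -0.32 to 0.0061 for Ptk2, -0.20 to 0.13 for Rsu1, -0.066 to 0.39 for Src, -0.67 to 0.0050 for Tln1, -0.23 to 0.026 for Trip6 and -0.054 to 0.19 for Vasp. The filter on low counts left out 4 of 10 alpha subunits and 3 of 5 beta subunits. Whether low depth or low expression was the reason was not tested.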
